A study of Mus musculus with 12 samples.

Results

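Lipoprotein lipase control and fatty acid uptake were described through 10 genes, chosen by their symbols. They come from the 48321 genes listed for brown adipocytes that overexpress tSema4B or carry an empty vector. The genes are Lpl, Angptl4, Gpihbp1, Lmf1, Vldlr, Cd36, Fabp4, Fabp5, Slc27a1 and Slc27a4. All 10 symbols were found, and 9 of them passed the filter on low values (at least 10 normalized counts in at least 3 libraries). They were chosen with the differences between tSema4B and vector cells already known, and Lpl because its tSema4B difference is not the same with and without NE. The values of those contrasts, and every value of Lpl, are therefore descriptions, also where they are counted against the thresholds that apply to all genes, and no p-value is printed for them. The response to NE was tested for the other members. It shares libraries with those contrasts, so these tests are not fully independent of the choice.

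The cells were immortalized murine brown adipocytes, made from wild-type preadipocytes with the SV40 large T antigen and stably transduced by lentivirus. One line carried the empty pLEX vector and the other the construct for tSema4B, a truncated and Flag-tagged Sema4B that mimics the ectodomain released by the protease ADAM17. After differentiation to day 8, cells of both lines were kept in serum-free medium with bovine serum albumin and left unstimulated or given 2 μM NE (norepinephrine, the transmitter that activates brown fat) for 6 h. Both lines with and without NE made 4 groups of 3 libraries, which the labels describe as technical replicates. Each construct was present in a single puromycin-selected line, so differences between tSema4B and vector are differences between these lines, and p-values cover only the spread between these libraries.

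Lipoprotein lipase cleaves the triglycerides of circulating lipoproteins so that fatty acids can enter the tissue around the capillary. Adipocytes make the enzyme, the chaperone encoded by Lmf1 folds it in the endoplasmic reticulum, GPIHBP1 carries it across the capillary wall, and the secreted protein ANGPTL4 inactivates it. The freed fatty acids are taken up with the help of CD36 and the acyl-CoA synthetases of the Slc27a family (fatty acid transport proteins) and are bound inside the cell by FABP4 and FABP5, while the VLDL receptor binds whole particles. In brown fat this route delivers fuel for heat production.

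Fabp4 and Fabp5 encode related proteins and lie near each other on chromosome 3, Fabp4 (ENSMUSG00000062515.3) at chr3:10204088-10208576 on the minus strand and Fabp5 (ENSMUSG00000027533.10) at chr3:10012548-10016607 on the plus strand (GRCm38). Their coding sequences were 59.8% identical (237 of 396 aligned bases), with a longest shared stretch of 12 bases, so a read of 100 bases tells them apart. The stretches printed here come from the coding sequences of GENCODE M21, bases 271 to 360 of Fabp4 and 277 to 366 of Fabp5 counted from the start codon. Capitals mark the 26 of 90 bases that differ. The window was picked as the most alike of those compared, with 64 identical bases, while the level of each gene rests on reads over its whole transcript.
Fabp4: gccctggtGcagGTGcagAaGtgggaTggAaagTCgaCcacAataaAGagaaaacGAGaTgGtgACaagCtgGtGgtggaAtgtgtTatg
Fabp5: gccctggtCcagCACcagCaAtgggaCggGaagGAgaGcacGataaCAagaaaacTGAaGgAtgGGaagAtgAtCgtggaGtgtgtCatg

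Reads were less certain for Fabp5 than for the other members. Of its 888 stretches of 100 bases, 80 (9.01%) were also found in the transcripts Gm6166 or Gm14328, against 36 of 4007 (0.898%) for Lpl and 0 for the other 8 members. Without stimulation Gm6166 itself held a mean of 86.8 ± 17.0 normalized counts in vector against 35.0 ± 2.29 in tSema4B cells, so it was lower in the same group as Fabp5. No exon of a member overlapped an exon of another gene.

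Promoters from RefSeq (GRCm38.p6) were matched for 5 of the 10 members. Those of Cd36 and Vldlr are shown because the mean of one gene was lower and that of the other higher in tSema4B cells. Each is the 250 bases before an annotated start, read in the direction of the gene. For Cd36 this is chr5:17835897-17836146 on the minus strand, and for Vldlr, which has 2 such windows in the table, it is the first, chr19:27216234-27216483 on the plus strand. The Cd36 window lies within the annotated span of the gene (chr5:17781690-17888801), so it precedes an inner start and not the outermost one. Capitals mark matches to AGGTCA, a core sequence bound by nuclear receptors, or to CCAAT, each searched on both strands.
Cd36: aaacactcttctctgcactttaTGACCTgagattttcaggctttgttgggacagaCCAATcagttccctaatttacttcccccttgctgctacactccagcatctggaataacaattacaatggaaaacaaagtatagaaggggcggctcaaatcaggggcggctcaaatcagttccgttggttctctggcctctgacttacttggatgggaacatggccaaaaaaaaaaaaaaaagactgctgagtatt
Vldlr: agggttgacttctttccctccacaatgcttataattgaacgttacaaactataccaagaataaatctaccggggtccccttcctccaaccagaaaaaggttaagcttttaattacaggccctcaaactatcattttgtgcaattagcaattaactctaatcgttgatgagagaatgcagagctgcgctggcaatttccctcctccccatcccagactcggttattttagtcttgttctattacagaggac

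In Cd36 the AGGTCA match lay 228 bases before that inner start (as TGACCT on the printed strand) and the CCAAT match 195 bases before it. Over 32851 promoters of the same length, 14.0% held AGGTCA and 33.8% held CCAAT. The Vldlr window shown held neither, nor TGACG or TATAAA, which says only that these letters are not in it, and the window before a second Vldlr start (chr19:27216770-27217019) held a CCAAT match on the minus strand, 78 bases before that start.

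The libraries held 2000780 to 5409583 reads on genes, with more reads in each vector than in each tSema4B library of the same condition. Sema4b took 2.04% to 4.02% of the counts in vector libraries and 7.01% to 10.2% in tSema4B libraries, in the direction of the labels. It was high in vector cells too, with means of 116800 ± 6690 normalized counts without stimulation and 74270 ± 8220 after NE. In tSema4B cells it was 2.40-fold and 3.15-fold higher. Reads of the construct and of the cell's own gene were not told apart, so this checks the labels only in part. The source of the reads in vector cells was not tested. Mitochondrially encoded genes took 13.4% to 16.7% of the counts in vector and 6.91% to 7.89% in tSema4B libraries. The 10 adipocyte markers (Adipoq, Pparg, Cebpa, Plin1, Cidec, Lipe, Pnpla2, Retn, Adipor2 and Slc2a4) were all detected, as the label of the cells requires. Their summed normalized count was 6594 to 8066 in vector and 1443 to 1753 in tSema4B cells without stimulation, and 7884 to 9082 and 1921 to 2151 after NE.

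Levels differed widely between the members. Per kb of transcript, Fabp4 was the highest in every group, from a mean of 4566 ± 1220 normalized counts per kb (SD, n = 3) in unstimulated tSema4B cells to 45650 ± 6280 in NE-treated vector cells. In unstimulated vector cells Cd36 followed with 2631 ± 427, then Lpl with 1755 ± 155, Fabp5 with 662 ± 107, Angptl4 with 360 ± 28.6, Vldlr with 62.2 ± 12.1 and Slc27a1 with 38.4 ± 4.37. Lmf1 (23.0 ± 1.71) and Slc27a4 (22.7 ± 7.36) overlapped at the lower end, and Gpihbp1 had no read. Among the members with reads, these last 2 were the only neighbours in the order whose libraries overlapped in that group.

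The order changed between groups. In unstimulated tSema4B cells Lpl (462 ± 37.0 normalized counts per kb) and Cd36 (460 ± 31.6) overlapped. After NE, Lpl was above Cd36 in every tSema4B library (945 ± 83.3 and 399 ± 33.3), whereas the 2 genes overlapped in vector cells (2030 ± 94.9 and 2140 ± 215). Slc27a1 ranked above Lmf1 and Slc27a4 without NE in both lines and overlapped Slc27a4 after NE in both.

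**Figure D1:**
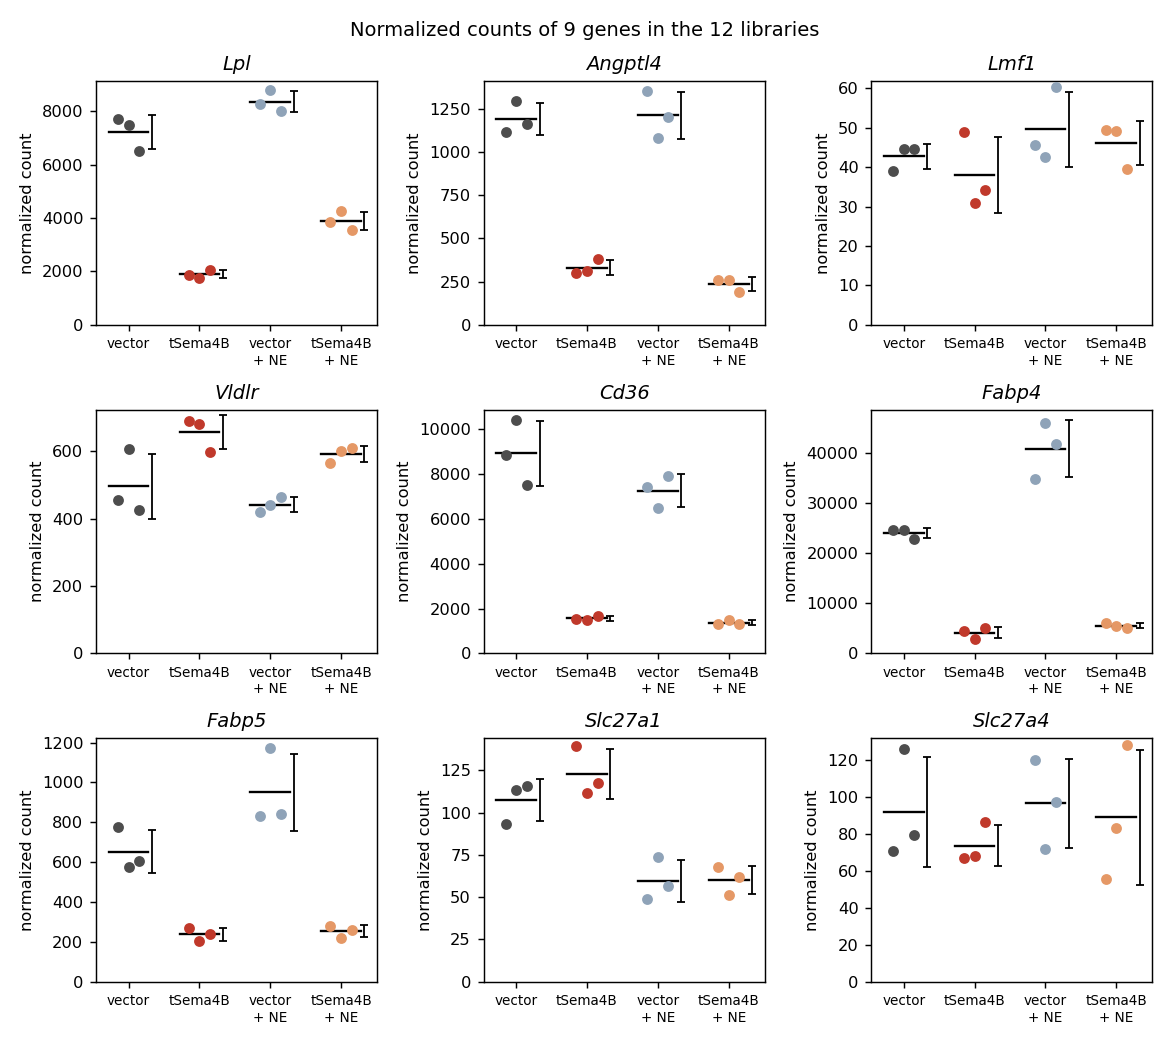
Normalized counts (linear axes from 0) of the 9 members with reads in each of the 12 libraries, by group. Points are libraries, horizontal bars are means and vertical bars are SD (n = 3). For Lpl, Angptl4, Cd36, Fabp4 and Fabp5 every tSema4B library lies below every vector library of the same condition, while Slc27a1 separates by NE.

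Lpl (ENSMUSG00000015568.16, chr8:68880491-68907448, plus strand) encodes the lipase itself. In unstimulated vector cells its normalized counts were 7693, 7480 and 6495 in replicates 1, 2 and 3, and in unstimulated tSema4B cells 1883, 1760 and 2063. After NE they were 8274, 8780 and 8012 in vector cells and 3847, 4248 and 3566 in tSema4B cells. The groups of both lines were thus apart in each condition, and in each line every NE library was above every unstimulated one.

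The log2 fold change of Lpl between tSema4B and vector cells was -1.92 (SE 0.0799) without stimulation and -1.11 (SE 0.0799) after NE, that is 3.79-fold and 2.15-fold lower. The NE difference was 0.21 (SE 0.0799) in vector cells and 1.03 (SE 0.0799) in tSema4B cells. The difference between these responses was 0.82 (SE 0.113), the value for which the gene was chosen. With each library left out in turn, it lay between 0.75 and 0.89. Of the 11998 genes tested for this interaction 0.025% passed an adjusted p of 0.05, and of the 9 members only Lpl did, which follows from the choice. That share moved with the setting, from 3 genes to 101 by DESeq2, to 0 with no filter on low values, where Lpl was not called either, and to between 1 and 31 with single libraries left out (31 without unstimulated tSema4B replicate 2 and 12 without tSema4B NE replicate 1). The NE difference in tSema4B cells lay close to the fold threshold of 1, at 0.98 without unstimulated tSema4B replicate 2 and 0.96 without tSema4B NE replicate 2.

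Angptl4 (ENSMUSG00000002289.16, chr17:33773750-33781830, minus strand), the secreted inhibitor of the lipase, was also lower in tSema4B cells. Its normalized counts were 1114, 1297 and 1162 in unstimulated vector cells against 302, 309 and 381 in unstimulated tSema4B cells, and after NE 1353, 1080 and 1205 against 261, 260 and 188. No tSema4B library came near a vector library. The log2 fold change between the lines was -1.85 (SE 0.130) without stimulation and -2.37 (SE 0.130) after NE.

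The response of Angptl4 to NE was tested. In vector cells it changed by 0.02 (SE 0.130, limma adjusted p = 0.945), with overlapping groups. In tSema4B cells it fell by 0.49 on the log2 scale (SE 0.130, limma adjusted p = 0.0245), 1.41-fold, and every NE library lay below every unstimulated library. This fall passed the adjusted p but not the fold threshold, and its adjusted p was 0.117 without unstimulated tSema4B replicate 3, 0.134 without tSema4B NE replicate 3, 0.143 in a model of only the 6 libraries compared and 0.060 with no filter on low values. The interaction of Angptl4 was -0.51 (SE 0.184), against 0.82 for Lpl.

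Lpl and Angptl4 were set side by side within each library, per kb of transcript. The lipase exceeded its inhibitor by a ratio of 4.89 ± 0.573 in unstimulated vector cells, 4.65 ± 0.338 in unstimulated tSema4B cells and 5.60 ± 0.838 in NE-treated vector cells. In NE-treated tSema4B cells the ratio was 13.4 ± 1.73, with libraries between 11.9 and 15.3, above all 9 other libraries (4.36 to 6.54). The ratio of Lpl to Cd36 was likewise highest there, at 2.37 ± 0.0887 against 1.00 ± 0.0144 in unstimulated tSema4B, 0.674 ± 0.0708 in unstimulated vector and 0.959 ± 0.146 in NE-treated vector cells. The ratio of Lpl to Vldlr was not highest there. It was 12.7 ± 1.25 in NE-treated and 5.65 ± 0.901 in unstimulated tSema4B cells. In vector cells it was 36.8 ± 2.88 with NE and 28.7 ± 4.47 without. These ratios contain Lpl and are a description.

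**Figure D2:**
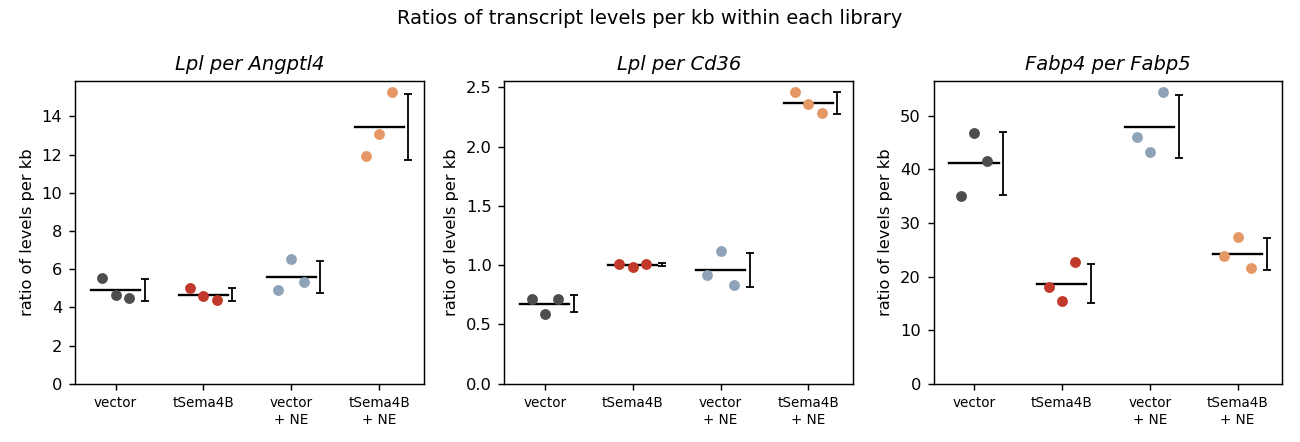
Ratios of levels per kb of transcript within each library (linear axes from 0) for Lpl per Angptl4, Lpl per Cd36 and Fabp4 per Fabp5, by group. Points are libraries, horizontal bars are means and vertical bars are SD (n = 3). The tSema4B NE libraries hold 11.9 to 15.3 Lpl per Angptl4, above all other libraries, while Fabp4 per Fabp5 separates the 2 lines.

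Lmf1 (ENSMUSG00000002279.19, chr17:25579085-25662826, plus strand), the chaperone that folds the lipase, was low in all groups, with 20 to 92 reads per library. Without stimulation its mean was 42.8 ± 3.18 normalized counts in vector against 38.0 ± 9.54 in tSema4B cells, and after NE 49.5 ± 9.39 against 46.1 ± 5.57. All groups overlapped. Its NE response was 0.19 (SE 0.277) in vector and 0.29 (SE 0.277) in tSema4B cells on the log2 scale, with limma adjusted p of 0.739 and 0.623.

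Gpihbp1 (ENSMUSG00000022579.10, chr15:75596628-75599481, plus strand) encodes the carrier of the lipase on capillary endothelium. It had 0 reads in all 12 libraries, and a level of up to 3 reads, 1.78 to 4.64 normalized counts depending on the library, would not have been detectable. This limit takes in counting error alone, since PCR copies of a molecule were counted as separate reads. Of the 8 endothelial markers 2 (Kdr and Tie1) had no read in any library, 2 passed the filter (Pecam1 and Egfl7), and the summed normalized count of the 8 was 19.6 to 28.3 in vector and 27.4 to 37.0 in tSema4B cells without stimulation. After NE it was 21.6 to 35.0 in vector and 43.5 to 54.2 in tSema4B cells, with no overlap between the lines.

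Vldlr (ENSMUSG00000024924.14, chr19:27216484-27254231, plus strand) encodes the receptor for triglyceride-rich particles. Its normalized counts were 455, 606 and 427 in unstimulated vector and 691, 682 and 598 in unstimulated tSema4B cells, where 1 vector library overlapped. After NE they were 419, 440 and 464 against 565, 601 and 610, with no overlap. The log2 fold changes were 0.42 and 0.43 (SE 0.118 for each), 1.34-fold in both conditions and below the fold threshold. NE changed it by -0.15 in each line, with limma adjusted p of 0.472 in vector and 0.537 in tSema4B cells.

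Cd36 (ENSMUSG00000002944.15, chr5:17781690-17888801, minus strand), which helps fatty acids across the membrane, held 8857, 10434 and 7537 normalized counts in unstimulated vector cells and 1538, 1473 and 1683 in unstimulated tSema4B cells. After NE it held 7443, 6470 and 7903 against 1292, 1488 and 1291. Every tSema4B library was far below every vector library. The log2 fold change between the lines was -2.50 (SE 0.0987) without stimulation and -2.42 (SE 0.0987) after NE, 5.67-fold and 5.35-fold lower.

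The NE response of Cd36 missed the threshold in both lines. It was -0.29 in vector cells (SE 0.0987, limma adjusted p = 0.0603) and -0.21 in tSema4B cells (SE 0.0987, limma adjusted p = 0.247) on the log2 scale, with overlapping groups. In vector cells the adjusted p fell below 0.05 under 7 of 16 alternatives, among them edgeR (0.0452) and DESeq2 (0.0377) on whole reads.

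Fabp4, the main fatty acid binding protein of adipocytes, had the largest estimated difference between the lines among the members tested, close to that of Cd36 without stimulation. Its normalized counts were 24643, 24549 and 22910 in unstimulated vector cells and 4425, 2873 and 4975 in unstimulated tSema4B cells. After NE they were 34882, 46022 and 41790 against 6039, 5476 and 5038. The log2 fold changes were -2.59 and -2.88 (SE 0.131 for each), 6.03-fold and 7.38-fold lower in tSema4B cells.

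NE raised Fabp4 in vector cells by 0.76 on the log2 scale (SE 0.131, limma adjusted p = 0.000506), 1.69-fold, with every NE library above every unstimulated one. In tSema4B cells it rose by 0.47 (SE 0.131, limma adjusted p = 0.0345), 1.38-fold, again with no overlap. Neither rise reached the fold threshold. The rise in tSema4B cells had an adjusted p of 0.178 without unstimulated tSema4B replicate 2, 0.118 without tSema4B NE replicate 1, 0.079 without tSema4B NE replicate 2, 0.120 in a model of only the 6 libraries compared, 0.135 with no filter and 0.161 by DESeq2.

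Fabp5, a second binding protein of the family, held 774, 578 and 608 normalized counts in unstimulated vector cells and 271, 206 and 241 in unstimulated tSema4B cells. After NE it held 834, 1175 and 844 against 280, 221 and 258, so the lines were apart in both conditions. The differences were -1.44 and -1.90 on the log2 scale (SE 0.147 for each). NE raised it in vector cells by 0.53 (SE 0.147, limma adjusted p = 0.0196), 1.45-fold and below the fold threshold, and the adjusted p was 0.106 without unstimulated vector replicate 2, 0.0806 without unstimulated vector replicate 3 and 0.156 without vector NE replicate 2. In tSema4B cells the response was 0.08 (SE 0.147, limma adjusted p = 0.822).

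The balance of the binding proteins followed the line. Per kb, Fabp4 exceeded Fabp5 by a ratio of 41.1 ± 5.89 in unstimulated vector and 47.9 ± 5.92 in NE-treated vector cells, but by 18.7 ± 3.73 and 24.2 ± 2.93 in tSema4B cells. No tSema4B library (15.4 to 27.3) reached a vector library (35.1 to 54.5). The share of Fabp5 reads that could come from its copies was not corrected.

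Slc27a1 (ENSMUSG00000031808.7, chr8:71568882-71587302, plus strand), fatty acid transport protein 1, was the only member whose fall with NE passed the adjusted p in both lines. The estimates of Cd36 and Vldlr were also below 0 in both lines, without passing it. Its normalized counts were 93.4, 114 and 115 in unstimulated vector cells and 49.0, 73.5 and 56.3 after NE, and in tSema4B cells 139, 111 and 118 without and 67.6, 51.1 and 62.1 with NE. No NE library reached an unstimulated library of its line. On the log2 scale it fell by 0.85 in vector cells (SE 0.215, limma adjusted p = 0.0114) and by 1.02 in tSema4B cells (SE 0.215, limma adjusted p = 0.00462), 1.81-fold and 2.03-fold.

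Only the fall in tSema4B cells reached the fold threshold, while the difference of the responses between the lines was -0.17 (SE 0.304). The fall in tSema4B cells did not reach that threshold without unstimulated tSema4B replicate 1 (-0.92) or tSema4B NE replicate 2 (-0.91). In vector cells it reached it without vector NE replicate 2 (-1.01), and its adjusted p rose to 0.0512 without unstimulated vector replicate 3, 0.0658 without vector NE replicate 1 and 0.0521 without vector NE replicate 3. Between the lines Slc27a1 differed by 0.19 without stimulation and 0.03 after NE, with overlapping groups.

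Slc27a4 (ENSMUSG00000059316.2, chr2:29802634-29817522, plus strand), fatty acid transport protein 4, had the widest spread between libraries of a group (SD 0.425 on the log2 scale). Its means were 92.1 ± 29.8 normalized counts in unstimulated vector, 73.7 ± 10.9 in unstimulated tSema4B, 96.5 ± 24.3 in NE-treated vector and 89.1 ± 36.5 in NE-treated tSema4B cells. All groups overlapped. NE changed it by 0.08 in vector and 0.20 in tSema4B cells (SE 0.280 for each), with limma adjusted p of 0.905 and 0.762.

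**Figure D3:**
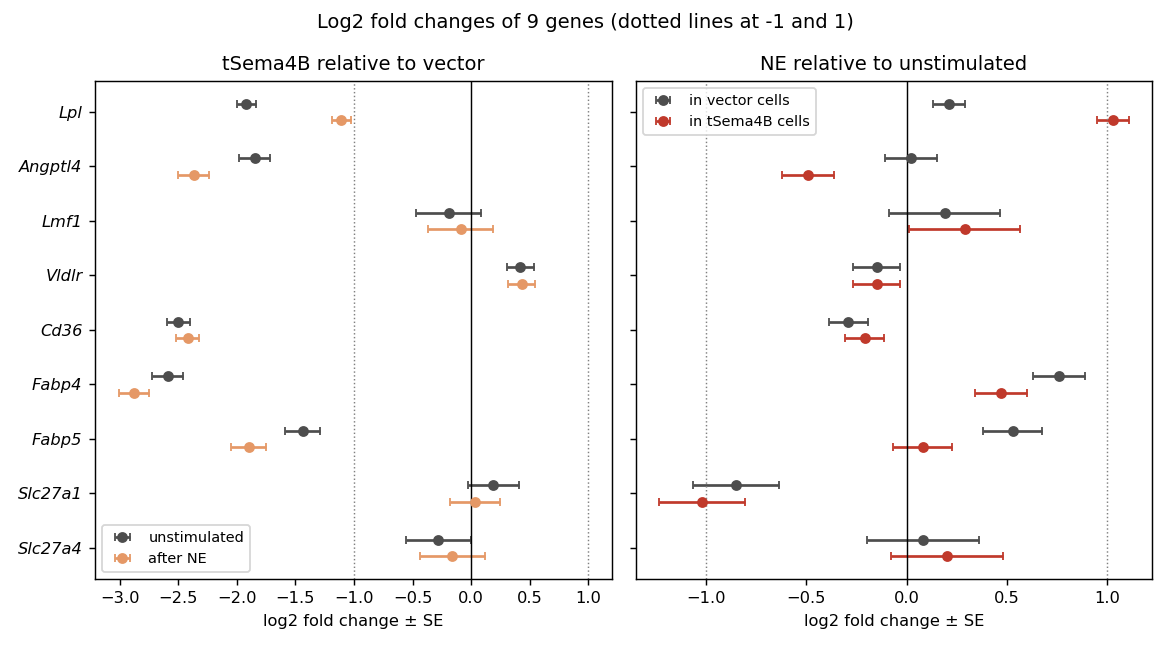
Log2 fold changes of the 9 members tested, for tSema4B relative to vector (left) and for NE relative to unstimulated (right). Points are estimates, bars are SE and dotted lines mark the fold threshold of 1. Lpl moves from -1.92 to -1.11 between conditions on the left and has the largest rise (1.03, in tSema4B cells) on the right, where Slc27a1 lies at -0.85 and -1.02.

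Counted over the members, 5 of the 9 tested (Lpl, Angptl4, Cd36, Fabp4 and Fabp5) passed both thresholds (adjusted p no greater than 0.05 and a log2 difference of 1 or more in either direction) lower in tSema4B cells without stimulation, where 2.71% of all genes did, and the same 5 did after NE, where 3.73% of all genes did. Their choice used these contrasts, and nothing is read from the counts. The median over the members was -1.44 without stimulation and -1.11 after NE, and that over all genes tested rounded to 0 and -0.01. For NE in vector cells 0 members were called by limma, edgeR or DESeq2, against 2.63% of all genes, although 5 of the 9 had an unadjusted p under 0.05, as did 23.9% of all genes. By the adjusted p alone 3 passed (Fabp4, Fabp5 and Slc27a1), where 11.6% of all genes did. For NE in tSema4B cells both thresholds were passed by Slc27a1 and by Lpl (2.07% of all genes), and the adjusted p alone by these 2, Angptl4 and Fabp4 (6.25% of all genes). Lpl was chosen on its response to NE, so its place in these counts is a description. The median NE response of the members was 0.08 in each line, and that over all genes -0.02 in vector cells. The comparisons share samples, so the 4 sets of values are not independent of each other.

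The other genes of the pathway came from lists of 27 genes for lipase handling and lipoprotein receptors and 22 for fatty acid uptake, binding and activation, of which 19 and 13 were tested. Like the members, the lists were chosen with earlier results known, so the p-values of their genes between the lines are descriptions. Most of them were not called. In unstimulated cells 4 of the 32 were called lower in tSema4B and 0 higher (2.71% and 1.11% of all genes), with a median of -0.08. After NE 6 were called lower and 1 higher (3.73% and 2.03% of all genes), with a median of 0.14. Of those called, Apoc1 and Apoc3 in both conditions and Lrp8, Pcsk6 and Slc27a6 after NE would not have passed the filter without the libraries of the line in which they are higher. By the adjusted p alone 9 passed without stimulation and 14 after NE, where 13% and 21% of all genes did.

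Among the apolipoproteins, Apoc1 and Apoc3, whose proteins are known to restrain the clearance of triglyceride-rich particles, were lower in tSema4B cells but were low in number. Apoc1 had 27 to 46 reads in unstimulated vector libraries and 0 to 6 in tSema4B libraries (log2 fold change -3.76, SE 0.633, and -4.64 to -1.87 over the alternatives), and after NE 57 to 99 against 2 to 5 (-3.37, and -3.63 to -2.08). Apoc3 had 8 to 18 reads in unstimulated vector libraries and 0 in tSema4B libraries, at least 2.90-fold lower against the value of 3 reads per library. After NE it had 19 to 25 against 0 to 2. Both genes reached the filter of 10 normalized counts only in vector libraries, so they entered the test through the group where they are high, and their p-values are not given. Apoe, the main particle ligand of the receptors, had a log2 difference of -0.36 without stimulation and -0.33 after NE, with limma adjusted p of 0.188 and 0.199.

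Lrp1, Scarb1, Calr, Canx, Sel1l, Lmf2, Apoe, Acsl3, Acsl5 and Cav1 were singled out after their values were seen, and their p-values are given only as a description. Of the receptors, Lrp1, which takes up remnants, was higher in tSema4B cells by 0.47 without stimulation (limma adjusted p = 0.00308) and 0.68 after NE (limma adjusted p = 5.22e-05), both under the fold threshold and in the same direction as Vldlr. Scarb1, the HDL receptor, was lower by 0.98 and 0.92 on the log2 scale (limma adjusted p of 8.1e-06 and 1.42e-05). Lrp8 was called lower after NE with 0 to 5 reads against 14 to 32 (-2.19), and Pcsk6, a protease that cuts the lipase and its inhibitors, with 2 to 7 reads against 29 to 37 (-1.93). Pcsk6 reached the filter in 5 vector and 0 tSema4B libraries and Lrp8 in 4 and 2, so neither would have been tested without the vector libraries, and their p-values are not given. The call of Lrp8 held in only 3 of 15 alternatives and was lost without any one library compared other than tSema4B NE replicate 3. That of Pcsk6 held in 11 of 15 alternatives. It was lost with no filter on low values and without vector NE replicate 2 or 3 or tSema4B NE replicate 1. None of the genes of protein folding in the list was called. Calr, a chaperone of the endoplasmic reticulum, was 0.36 higher in tSema4B cells after NE (limma adjusted p = 0.000584), with no overlap and under the fold threshold, and 0.10 higher without stimulation (limma adjusted p = 0.378). Canx differed by 0.07 and 0.19 (0.589 and 0.0863), Sel1l, which partners Lmf1, by -0.09 and 0.35 (0.718 and 0.0535), and Lmf2 by 0.07 and 0.30 (0.775 and 0.0676), without stimulation and after NE.

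Among the activating and binding genes, Acsl1, the main long-chain acyl-CoA synthetase of adipocytes, had a mean of 604 ± 108 normalized counts in unstimulated vector and 181 ± 26.7 in unstimulated tSema4B cells (-1.73, SE 0.174, limma adjusted p = 2.48e-07), and 695 ± 133 and 316 ± 86.6 after NE (-1.15, SE 0.174, limma adjusted p = 5.15e-05). Dbi, the acyl-CoA binding protein, was lower by 1.46 and 1.66 on the log2 scale (limma adjusted p of 2.06e-07 and 3.49e-08). Slc27a6 went the other way after NE, with 7 to 12 reads in tSema4B libraries and 2 to 3 in vector libraries. It reached the filter only in tSema4B libraries, and its call was lost with a pseudocount of 10. The differences of Acsl3, Acsl4 and Acsl5 between the lines lay between -0.52 and 0.37 on the log2 scale, and none of the 3 was called in either condition, with limma adjusted p from 0.0503 to 0.349.

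**Figure D4:**
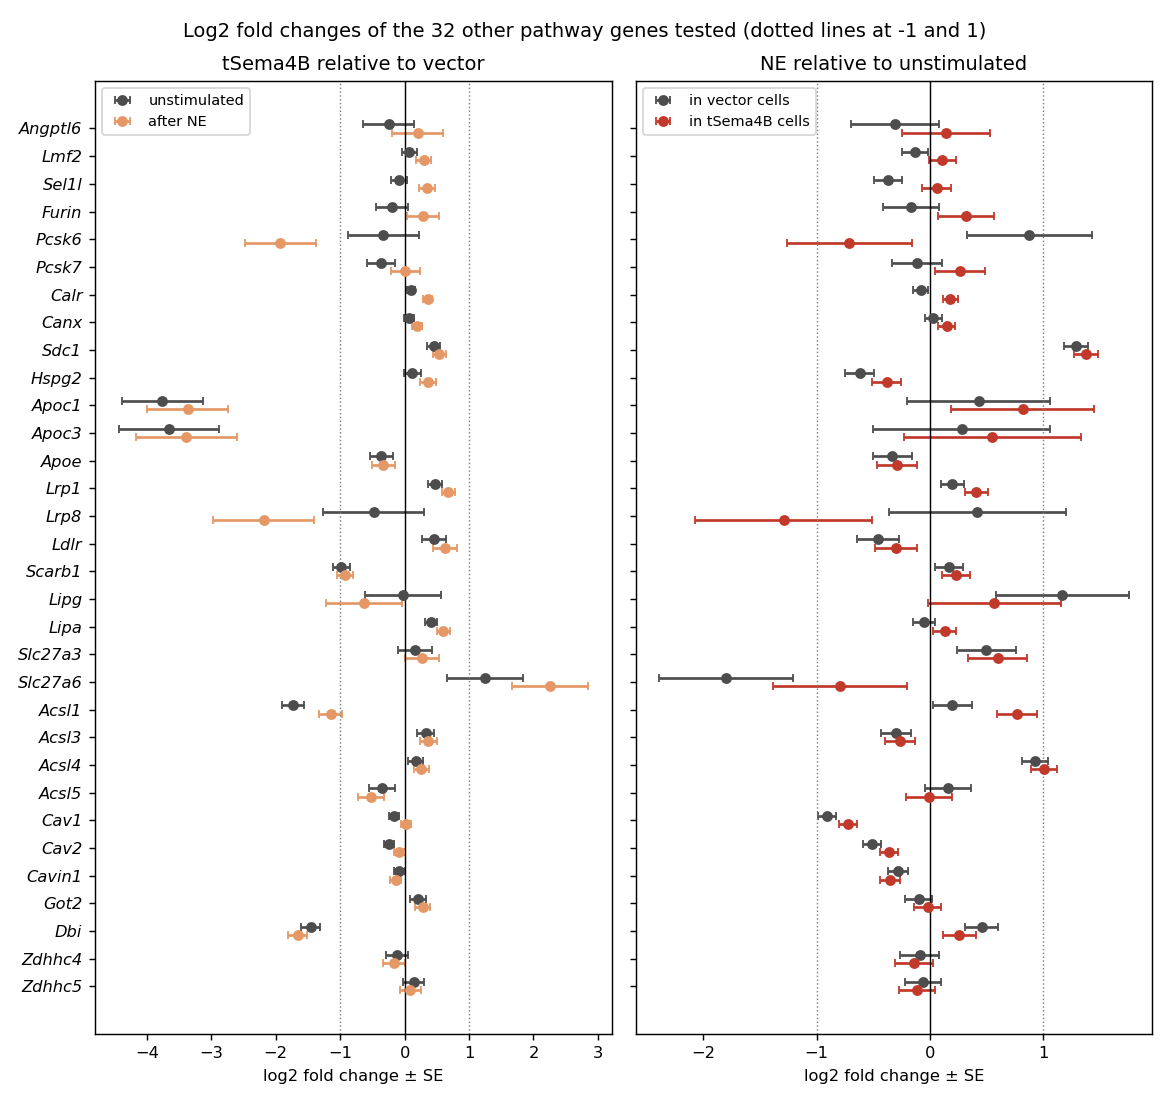
Log2 fold changes of the 32 other pathway genes tested, for tSema4B relative to vector (left) and for NE relative to unstimulated (right), with lipase handling and receptors above and fatty acid uptake, binding and activation below. Points are estimates, bars are SE and dotted lines mark the fold threshold of 1. Apoc1, Apoc3, Acsl1 and Dbi lie below -1 on the left in both conditions, and Sdc1 lies at 1.29 and 1.38 on the right.

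Of the 32 other pathway genes, NE called 1 higher and 0 lower in vector cells. In tSema4B cells it called 2 higher and 0 lower. Beside these counts, 2.63% and 2.07% of all genes were called in either direction. Sdc1, a heparan sulfate proteoglycan that binds lipoproteins and the lipase at the cell surface, rose from 376 ± 22.4 to 924 ± 110 normalized counts in vector cells (1.29, SE 0.104, limma adjusted p = 3.79e-08) and from 516 ± 30.4 to 1345 ± 122 in tSema4B cells (1.38, SE 0.104, limma adjusted p = 1.5e-08). Acsl4, a synthetase that prefers arachidonic acid, rose by 1.01 in tSema4B cells (limma adjusted p = 3.14e-06) and by 0.93 in vector cells (limma adjusted p = 6.73e-06), on either side of the fold threshold. Cav1, the coat protein of caveolae, fell by 0.91 in vector and by 0.72 in tSema4B cells (limma adjusted p of 1.07e-07 and 3.14e-06), under the fold threshold. Of the 32 genes 0 had an interaction by limma, edgeR or DESeq2, with 3 at an unadjusted p under 0.05 in limma, where 10.2% of all genes were.

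The genes whose pattern over the 12 libraries was most like that of Lpl, by Pearson's r of log2 normalized counts among tested genes with a mean of at least 100, were Rbp4 (0.981), Cidec (0.977), Idh3a (0.976), Mtch2 (0.976) and Mrps22 (0.974). The 12 points come from 4 groups and share their libraries and depth, so r reflects mainly the group means and is a description. Rbp4, a carrier of retinol, had means of 186 ± 22.7 and 24.1 ± 6.55 normalized counts in unstimulated vector and tSema4B cells and 240 ± 49.3 and 59.3 ± 10.6 after NE. Cidec, a protein of lipid droplets, had 448 ± 86.1 and 68.4 ± 24.3, and 435 ± 26.1 and 148 ± 25.1.

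Markers of cell types moved with the lines. Of the 10 adipocyte markers 10 were called lower in tSema4B cells in each condition, with a median log2 fold change of -2.49 without stimulation and -1.59 after NE, next to -1.92 and -1.11 for Lpl, -2.50 and -2.42 for Cd36 and -2.59 and -2.88 for Fabp4. Of the 12 preadipocyte and fibroblast markers 11 were tested and 4 (Col1a1, Col3a1, Dcn and Fap) were called higher in each condition. Over all genes 2.71% were called lower and 1.11% higher without stimulation, and 3.73% and 2.03% after NE. The median log2 fold change of the 11 was 0.56 without stimulation and 0.94 after NE, and Thy1 (-0.12) and Lum (-0.26) were below 0 without stimulation. The summed normalized count was 16830 to 17440 in vector and 31520 to 35860 in tSema4B cells without stimulation, and 13920 to 16010 and 29590 to 31420 after NE. Col1a1 and Col3a1 carried most of that sum, with means of 5737 and 6905 normalized counts in unstimulated vector and 11720 and 14460 in unstimulated tSema4B cells. The part of these shifts in the member values was not tested, and in bulk RNA fewer differentiated cells and less RNA per cell cannot be told apart. Of the 7 macrophage markers Adgre1, Ptprc and Mrc1 had no read in any library, and the summed normalized count of the list was 0 to 7.60 in unstimulated and 9.65 to 24.6 in NE-treated libraries. Csf1r, the receptor of a macrophage growth factor, had 0 to 2 reads without and 9 to 22 with NE, and was called higher with NE in both lines, but it passed the filter only through the NE-treated libraries.

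For NE the adipocyte markers moved less. Of the 10, 1 was called higher in vector cells and 2 were called higher in tSema4B cells (Retn in both, Cidec in tSema4B cells), with medians of 0.01 and 0.25 on the log2 scale. Over all genes NE called 2.63% in vector and 2.07% in tSema4B cells, in either direction. In vector cells Plin1, the coat protein of lipid droplets, was lower with NE by 0.97 (limma adjusted p = 0.03) and Pparg, the main adipogenic transcription factor, by 0.71 (limma adjusted p = 0.0146), both without overlap and under the fold threshold, and both named after their values were seen. In tSema4B cells they differed by -0.64 and -0.44 (limma adjusted p of 0.208 and 0.187). Over the same comparisons the NE difference of Lpl was 0.21 and 1.03 and that of Fabp4 0.76 and 0.47. The interaction was above 0 for 9 of the 10 adipocyte markers and for 6107 of the 11998 genes tested. Its median was 0.26 over these markers and 0.01 over all genes, and 0 of the markers were called for it (0.025% of all genes).

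**Figure D5:**
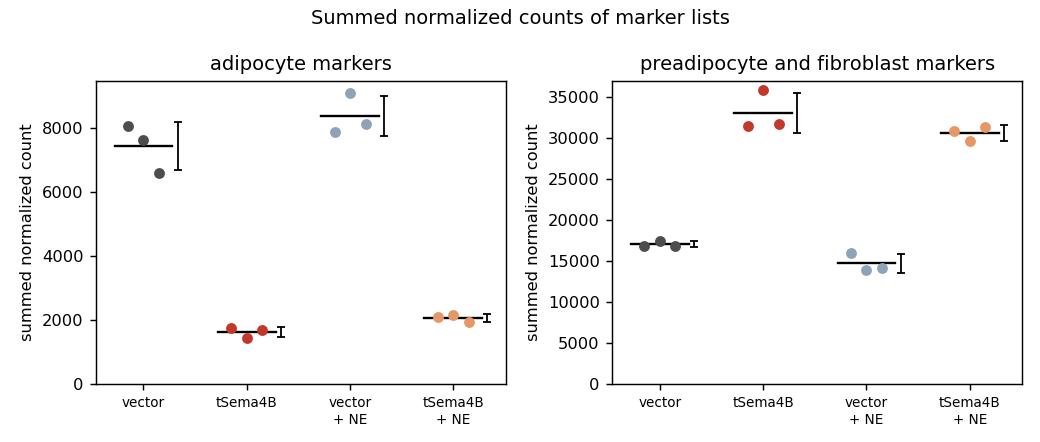
Summed normalized counts (linear axes from 0) of the 10 adipocyte markers (left) and the 12 preadipocyte and fibroblast markers (right) in each library, by group. Points are libraries, horizontal bars are means and vertical bars are SD (n = 3). Adipocyte sums lie between 6594 and 9082 in vector and between 1443 and 2151 in tSema4B libraries, and preadipocyte sums are higher in tSema4B libraries.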

How the data were processed

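RNAseq libraries (SMART-Seq2, Nextera XT, single-end reads) were grouped by their labels. After a screen for other species, the authors mapped reads with STAR 2.7.9a to mm10 (GRCm38.p4, per the submitters' processing notes), assigned them to genes with htseq-count and applied DESeq2 size factors; the deposited signal is this normalized count. Annotation, strand and multimapping settings were not given in the sources used here. All non-zero values (100%) were whole multiples of 1 read (tolerance 0.01), so reads were recovered. Libraries of a group differed beyond counting noise (chi-square per degree of freedom 3.65 to 6.12).

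Values were log2-transformed (pseudocount 1). The 11998 genes that reached 10 normalized counts in 3 or more libraries entered one limma 3.58.1 model (R 4.3.3) of the 4 groups with an abundance trend, with two-sided tests and Benjamini-Hochberg adjustment over all genes. Calls needed an adjusted p no greater than 0.05 and, outside the interaction, a log2 difference of 1 or more. In simulated data made for NE in tSema4B cells (11776 genes tested), 73.7% of genes changed by 1 and 99% of those changed by 2 on the log2 scale passed the adjusted p in the right direction. Among the unchanged genes 15 passed it as well. The simulation gave all genes the same spread beyond counting error, which was not estimated from these libraries. These shares therefore need not hold for genes with a wider spread, such as Slc27a4.

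The members and lists were chosen with earlier results of these data known. Named were all members, the 5 called list genes with the largest change per comparison and direction whose groups did not overlap, and the 5 genes most like Lpl; Scarb1, Lrp1, Apoe, Sel1l, Lmf2, Calr, Canx, Acsl3, Acsl5, Cav1, Angptl8 and the markers Plin1, Pparg, Thy1, Lum and Csf1r were added after their values were seen. Cavin1 is listed as Ptrf. Per-kb levels used the longest principal transcript of GENCODE M21. Alternatives were other pseudocounts (0.5, 10), filters (none, 50), scalings, edgeR 4.0.16 and DESeq2 1.42.0 on reads, 6-library models, a replicate block, the adjusted p alone and each library left out.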

Additional observations from a re-analysis of the deposited data

Results flagged for a closer look

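The difference of the tSema4B effect on Lpl after NE and without NE (log2 0.82, SE 0.113) was picked up because the effects in the 2 conditions differ by the interaction term. Lpl was chosen for this difference, so the value is no independent result. Groups of 3 libraries are too small for a check of single outlying libraries.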

How the results depend on the processing

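No member changed sign under an alternative in a comparison in which it was called. For NE in tSema4B cells 2 members were called, but 1 with a pseudocount of 10 and 1 with the same total over all genes (Slc27a1 at -0.92 and -0.99), 4 by the adjusted p alone, and between 0 and 2 with single libraries left out (1 without unstimulated tSema4B replicate 1 or 2, 0 without tSema4B NE replicate 2). For NE in vector cells 0 were called, 3 by the adjusted p alone and between 0 and 1 with libraries left out (1 without vector NE replicate 2). The interaction, for which Lpl was chosen, called 1 member, and 0 with no filter on low values, where more genes are tested. Other pathway genes called between the lines numbered 4 without stimulation and 7 after NE. They were 2 and 2 with a filter at 50 normalized counts, which removes Apoc1, Apoc3 and other low genes, and 9 and 14 by the adjusted p alone. For NE in vector cells 1 was called, 2 with a pseudocount of 0.5, the same total over all genes, the same total over nuclear genes without Sema4b, edgeR or DESeq2, 7 by the adjusted p alone and between 1 and 2 with libraries left out (2 without unstimulated vector replicate 1 or vector NE replicate 2). For NE in tSema4B cells 2 were called, 1 with a pseudocount of 10, 7 by the adjusted p alone and between 1 and 2 with libraries left out (1 without unstimulated tSema4B replicate 2 or tSema4B NE replicate 2). Over all genes the interaction called 3 genes, 0 with no filter and 101 by DESeq2, and between 1 and 31 with libraries left out (12 without tSema4B NE replicate 1, 31 without unstimulated tSema4B replicate 2, 1 without unstimulated tSema4B replicate 3, unstimulated vector replicate 1 or 2, or any vector NE replicate). NE in tSema4B cells called 248 genes, and 157 in a model of only the 6 libraries. After NE, 35.3% of the genes called between the lines were higher, and 48.9% with the same total over all genes. The cause of these shifts was not tested.

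With the replicate number as a block, the members called were 5, 5, 0, 2 and 1 over the 5 comparisons and the other pathway genes called were 4, 6, 1, 2 and 0. After removal of group means, the 18 pairs of libraries with the same number correlated by -0.047 to 0.0282, so no shared effect of the number was seen. Whether libraries with the same number share a culture is not stated. Low depth limits Lmf1, Slc27a1, Slc27a4, Apoc1, Apoc3, Lrp8, Pcsk6 and Slc27a6, whose libraries hold few reads.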

Other observations

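Angptl8, which encodes a secreted regulator of the lipase, did not pass the filter on low values. It had 8 to 30 reads in NE-treated vector libraries and 1 to 2 in NE-treated tSema4B libraries. Without stimulation it had 5 to 9 and 0 to 4 reads. It was singled out after its values were seen, and the difference was not tested.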
